A study of Homo sapiens with 33 samples.

Results

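KLF proteins are zinc-finger transcription factors that bind GC-rich and CACCC elements in promoters. Some act mainly as activators and others recruit co-repressors to the same kind of element. In lymphocytes KLF2 is known as a factor of quiescence and of migration between blood and lymphoid tissue, and KLF9 is a well-known direct target of the glucocorticoid receptor. The 10 family members described here are KLF2, KLF3, KLF4, KLF6, KLF7, KLF9, KLF10, KLF11, KLF13 and KLF16, each found by its symbol among 62446 gene rows. All 10 had a row, and between 7 and 8 of them passed the filter on low counts in a comparison. KLF4 and KLF11 passed it in none.

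RNA sequencing was done on 33 libraries, 3 in each of 11 groups, from 3 acute lymphoblastic leukaemia lines: parental Nalm6 (a B-cell precursor line), a Nalm6 derivative edited with CRISPR/Cas9 at TLE1, which encodes a Groucho-type co-repressor, and CEM (a T-cell line). Parental Nalm6 had 2 groups without drug, 1 of them titled as the dexamethasone control. The treated parental groups received 0.5 µM CHIR-99021 (a GSK3 inhibitor used as a Wnt agonist), 5 µM prednisolone or 100 nM dexamethasone, the last 2 being glucocorticoids, each for 24 h. For the TLE1 knockout line there were 3 groups: no drug, prednisolone at 5 µM and dexamethasone at 100 nM. CEM had 3 groups as well, without drug, with CHIR-99021 at 2 µM and with prednisolone at 10 µM, and exposure lasted 24 h in each line. The protocol text in the labels assigns the drugs of Nalm6 and the knockout differently from the titles, which were followed. Nalm6 and knockout cells were kept in medium with charcoal-stripped serum. How many clones the knockout line stands for is not given in the sources used here. The series text speaks of 3 independent experiments for some groups. For the others nothing says that replicates were separate cultures, so p-values measure the spread between these libraries.

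Libraries held 25292579 to 61930057 counts in genes. In bulk RNA, fewer cells of a kind and less RNA per cell cannot be told apart. The 8 B-cell precursor markers summed to between 2626 and 3645 CPM (counts per 1000000 counts in genes) in Nalm6 and knockout libraries and to between 171 and 245 CPM in CEM, whereas the 8 T-cell markers summed to between 1637 and 1794 CPM in CEM and at most 44.4 CPM elsewhere, where only LCK exceeded 1 CPM. TLE1 transcript was still present in the knockout line at 24.5 ± 0.78 CPM, against 32.0 ± 1.9 CPM in untreated parental cells (SD, n = 3 each), so its level does not check the edit. The glucocorticoid target TSC22D3 rose in all 5 glucocorticoid comparisons, by between 3.99 and 5.96 on the log2 scale. The 2 untreated parental groups differed in 50.2% of the genes tested. The share of reads matching no gene feature on the counted strand differed with the form of the file name. It was 23.9% to 32.7% in libraries whose file names share the form of the Nalm6 prednisolone and CHIR-99021 groups. In those named like CEM and parental dexamethasone it was 18.4% to 22.0%. The part of that difference in the results was not tested. The knockout dexamethasone libraries carry file names of their own form and have no untreated knockout libraries of the same form.

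Promoter sequence was read from RefSeq (GRCh38.p14), 250 bases before to 50 after the annotated start, and 8 of the 10 members had at least 1 entry. The 4 genes with the highest log2 fold changes under both glucocorticoids in parental Nalm6 (KLF2, KLF6, KLF9 and KLF13) and KLF16, which fell, are shown 5′ to 3′ on the strand of the gene. Capitals mark GC boxes (GGGCGG on either strand), CACCC boxes (CCACCC on either strand) and AGAACA on either strand, 1 arm of the glucocorticoid response element.
KLF2, chr19:16324576-16324875, plus strand: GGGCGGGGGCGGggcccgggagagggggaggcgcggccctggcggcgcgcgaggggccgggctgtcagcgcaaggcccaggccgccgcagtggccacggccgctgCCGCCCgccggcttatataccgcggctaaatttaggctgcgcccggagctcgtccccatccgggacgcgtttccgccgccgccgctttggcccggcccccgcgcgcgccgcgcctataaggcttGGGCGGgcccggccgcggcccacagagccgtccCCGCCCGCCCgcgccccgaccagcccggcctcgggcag
KLF6, chr10:3785160-3785459, minus strand: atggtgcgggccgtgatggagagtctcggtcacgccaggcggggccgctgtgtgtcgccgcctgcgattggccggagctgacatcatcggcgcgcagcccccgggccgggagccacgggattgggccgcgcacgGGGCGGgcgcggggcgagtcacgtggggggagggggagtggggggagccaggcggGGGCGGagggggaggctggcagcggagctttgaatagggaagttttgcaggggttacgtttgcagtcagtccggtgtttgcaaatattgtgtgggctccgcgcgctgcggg
KLF9, chr9:70414608-70414907, minus strand: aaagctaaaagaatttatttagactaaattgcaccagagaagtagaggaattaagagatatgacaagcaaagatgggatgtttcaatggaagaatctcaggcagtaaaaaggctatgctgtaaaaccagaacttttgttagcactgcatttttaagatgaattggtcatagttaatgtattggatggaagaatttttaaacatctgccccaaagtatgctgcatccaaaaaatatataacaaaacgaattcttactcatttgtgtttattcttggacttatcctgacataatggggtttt
KLF13, chr15:31326585-31326884, plus strand: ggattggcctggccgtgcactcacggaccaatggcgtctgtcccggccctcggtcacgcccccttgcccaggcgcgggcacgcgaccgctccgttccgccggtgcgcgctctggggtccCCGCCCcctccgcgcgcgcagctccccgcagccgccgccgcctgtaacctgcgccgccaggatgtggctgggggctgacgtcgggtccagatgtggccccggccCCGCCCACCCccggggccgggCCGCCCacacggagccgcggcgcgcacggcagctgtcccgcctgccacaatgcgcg
KLF16, chr19:1863530-1863829, minus strand: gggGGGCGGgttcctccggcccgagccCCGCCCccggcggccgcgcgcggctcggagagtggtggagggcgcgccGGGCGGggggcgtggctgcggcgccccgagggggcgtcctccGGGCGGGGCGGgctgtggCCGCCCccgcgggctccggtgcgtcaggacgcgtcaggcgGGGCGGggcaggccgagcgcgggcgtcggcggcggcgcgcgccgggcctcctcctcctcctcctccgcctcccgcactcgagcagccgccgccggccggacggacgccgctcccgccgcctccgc

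The KLF16 window holds 7 GC boxes, that of KLF2 6, that of KLF13 3 and that of KLF6 2, while the KLF9 window, at 32.7% G and C against 70.7% to 86% in the other 4, holds none. GC boxes occur in 45.0% of 35116 promoters of this length. The full palindromic glucocorticoid response element was found in 1 of those 35116 promoters and in no member. Its arm AGAACA occurs in 14.8% of promoters, and among the members in 1 of the 4 KLF7 entries. KLF2 carries a match to the MEF2 motif, which 2.99% of promoters do, and KLF6 and 1 KLF7 entry one to the TCF/LEF motif CTTTGAA, present in 4.43%. These matches describe letters in a short window and say nothing of binding elsewhere.

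Untreated cells of the lines differed in which KLF gene was most abundant. Levels were scaled by exon length. In the untreated parental Nalm6 group not titled as the dexamethasone control, KLF16 led at 20.3 ± 1.2 CPM per kb. That was 47.3% of the summed level of the 10 members. KLF13 came next there at 6.67 ± 0.25 CPM per kb, followed by KLF6 at 5.06 ± 0.13. KLF10 at 4.07 ± 0.24 and KLF3 at 4.06 ± 0.03 did not differ beyond their spread. Below them were KLF7 at 1.79 ± 0.099, KLF9 at 0.700 ± 0.038 and KLF2 at 0.263 ± 0.036 CPM per kb (SD, n = 3 each). In untreated CEM the order began with KLF13 at 20.3 ± 0.59 CPM per kb, 53.0% of the members' sum, and KLF16 was second at 8.55 ± 0.35. KLF10 at 3.94 ± 0.025 and KLF6 at 3.47 ± 0.45 CPM per kb followed, apart by little more than the SD of KLF6.

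**Figure D1:**
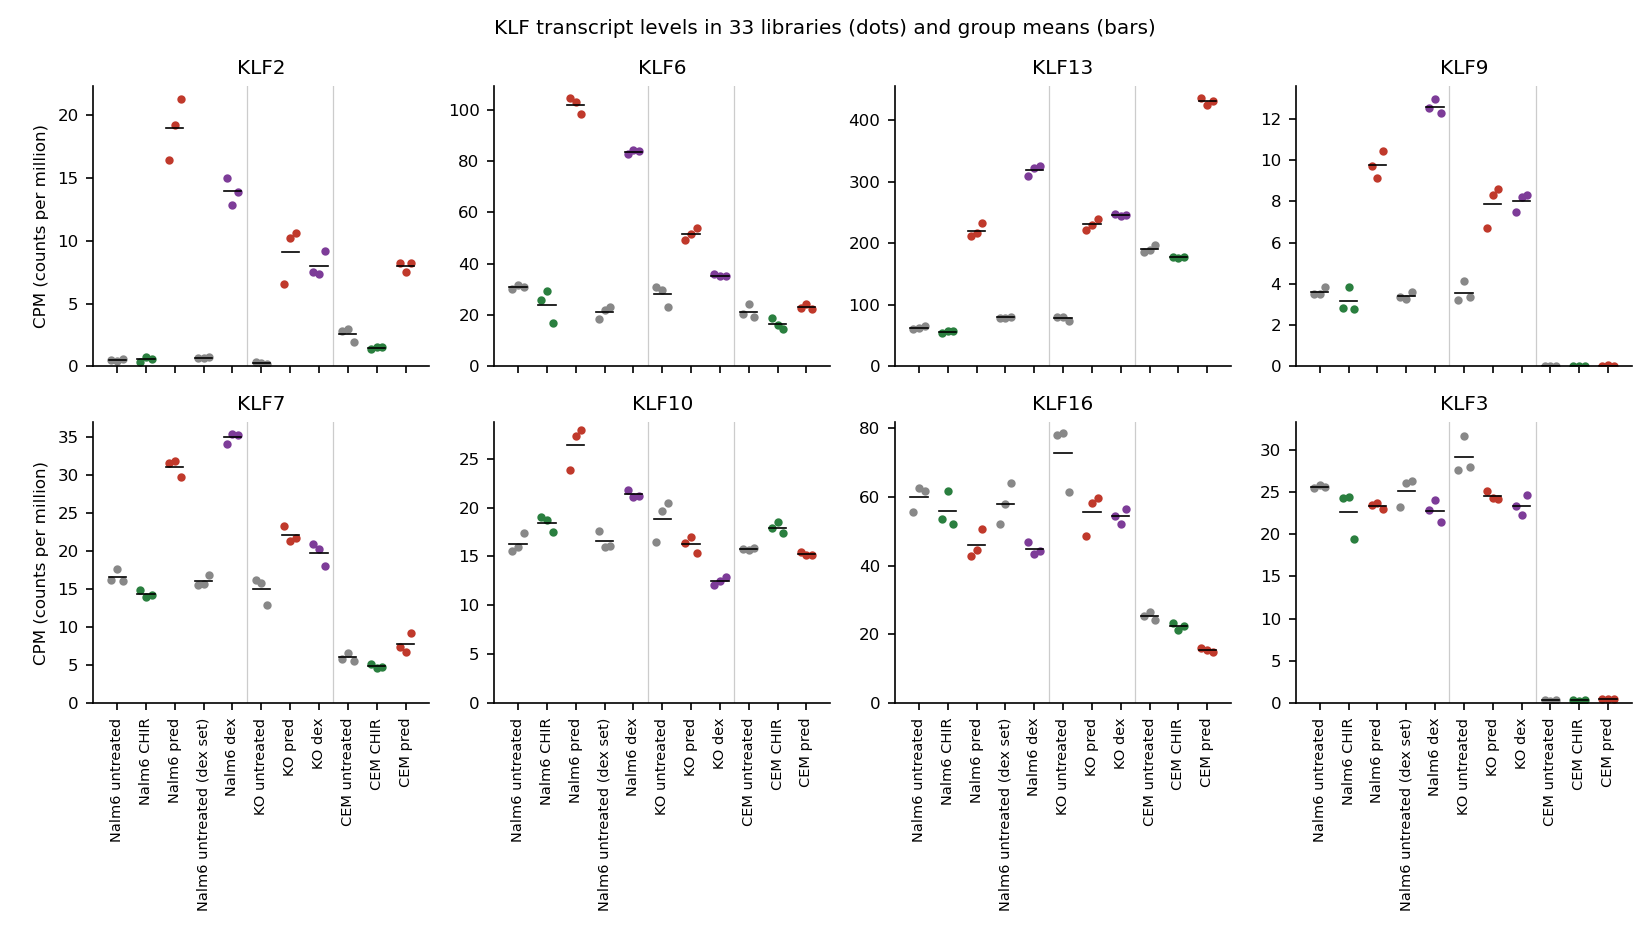
Level of 8 KLF genes in CPM (vertical axis, linear, from 0, its own range for each gene) in the 33 libraries (dots) of 11 groups (horizontal axis), with group means as bars; grey is untreated, green CHIR-99021, red prednisolone and purple dexamethasone, and "dex set" marks the group titled as the dexamethasone control. KLF2 lies under 1 CPM in every untreated parental and knockout library and between 6.58 and 21.3 CPM in every glucocorticoid-treated one, and KLF9 and KLF3 are near 0 in CEM.

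Between the lines, 6 of 8 tested members differed in untreated cells (CEM against the untreated Nalm6 group whose files are named alike), where 77.5% of all genes tested did, 40.2% higher and 37.3% lower in CEM. KLF9, among the 6, passed the filter on low counts only through Nalm6. It was nearly absent from CEM: the 3 untreated CEM libraries held 0, 2 and 0 counts, against 3.35, 3.29 and 3.60 CPM in Nalm6. On summed counts, 2 against 384, KLF9 was 214-fold higher in Nalm6, with an exact 95% interval of 58.9 to 1774 that covers counting error only. KLF3, a repressor that binds CtBP proteins, stood at 0.347, 0.285 and 0.355 CPM in CEM and 23.2, 26.0 and 26.3 CPM in Nalm6, a log2 difference of -6.29 ± 0.12 (SE; adjusted p = 3.52e-14). CTBP2, which encodes 1 of those partners, was also lower in CEM (-3.45 on the log2 scale). Of the 9 listed co-regulators of KLF proteins, 3 were higher in CEM and 5 lower. KLF7 (-1.45 ± 0.082) and KLF16 (-1.23 ± 0.067) were lower in CEM as well.

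KLF2 and KLF13 ran the other way. KLF2 was 1.84 ± 0.20 higher in CEM on the log2 scale (adjusted p = 2.07e-06) and KLF13 1.22 ± 0.040 higher (adjusted p = 7.89e-12). On the list of KLF2 targets in lymphocytes, the homing receptor gene CCR7 (8.90) and the sphingosine phosphate receptor gene S1PR1 (3.57) were higher in CEM too. Of the 6 regulators listed upstream of KLF2, 2 were higher in CEM and 4 lower. FOXO1 (-8.74) and MEF2C (-4.40) were among the lower ones. KLF6 differed by -0.02 ± 0.096 and KLF10 by -0.11 ± 0.064, and neither was called. With the other untreated Nalm6 group, KLF6 was called lower in CEM, at -0.49 (adjusted p = 5.33e-06).

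KLF4, a factor of pluripotency and differentiation, had 9, 7 and 6 counts in the untreated CEM libraries and none in untreated Nalm6. On summed counts it was at least 6.58-fold higher in CEM, taking 3 counts over the Nalm6 group as the floor, and the exact 95% lower limit of the ratio, which also covers counting error in CEM, was 4.91. Among all 24 parental and knockout libraries, 1 held KLF4 counts, 2 in a knockout dexamethasone library. KLF11, a TGF-beta-induced relative of KLF10, had 4 counts in 3 of the 33 libraries. It had no count in either untreated Nalm6 group, where 3 counts over the group equal 0.0178 CPM and, in the group titled as the dexamethasone control, 0.0266 CPM. Neither gene was tested further.

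Prednisolone raised 6 of the 8 tested KLF genes in parental Nalm6 and lowered 2; among all 18658 genes tested, 28.7% rose and 26.1% fell, 54.8% in all. The median log2 fold change of the 8 was 1.14, against 0.03 over all genes. KLF2 changed most. It stood at 0.549, 0.449 and 0.592 CPM in the untreated libraries and at 16.5, 19.2 and 21.3 CPM under prednisolone, with no overlap. That is a log2 fold change of 5.13 ± 0.13 (SE; adjusted p = 4.14e-15), 35.0-fold, and the 90th highest of the genes tested. From 0.612% of the members' summed length-scaled level, KLF2 moved to 11.7%.

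KLF13, which regulates chemokine expression in T lymphocytes, went from 60.5, 62.7 and 65.2 CPM to 212, 216 and 232 CPM, a log2 fold change of 1.78 ± 0.046 (adjusted p = 3.52e-15). KLF6, an immediate-early growth regulator, went from 30.3, 31.9 and 31.1 CPM to 105, 103 and 98.1 CPM, or 1.68 ± 0.041 (adjusted p = 1.60e-15). KLF9, a repressor of proliferation in several tissues, went from 3.49, 3.53 and 3.85 CPM to 9.71, 9.15 and 10.5 CPM, or 1.40 ± 0.090 (adjusted p = 6.45e-10). Each of these 3 genes was higher in every treated library than in any untreated one. The share of all genes without overlap was not counted, in this comparison or in those that follow. KLF7, known for roles in neurons and early lymphoid cells, rose by 0.88 ± 0.050 and KLF10, a TGF-beta early-response gene, by 0.68 ± 0.064. The KLF7 libraries ran from 16.0 to 17.6 CPM untreated and from 29.7 to 31.8 CPM treated.

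The 2 falls were small. KLF16, the most abundant member per kb of exon before treatment, stood at 55.7, 62.5 and 61.6 CPM untreated and 42.6, 44.7 and 50.7 CPM under prednisolone, a fall of 0.40 ± 0.061 on the log2 scale (adjusted p = 2.45e-05). KLF3 fell by 0.16 ± 0.045 (adjusted p = 0.00591), from between 25.4 and 25.8 CPM to between 23.0 and 23.6 CPM. After treatment KLF13 passed KLF16 in length-scaled level, at 23.4 ± 1.1 against 15.6 ± 1.4 CPM per kb, and its share of the members' sum went from 15.6% to 29.1%.

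Dexamethasone, tested against its own untreated Nalm6 group, raised the same 6 genes and lowered the same 2; 60.5% of 17217 genes tested changed, 30.2% in each direction. KLF2 went from 0.704, 0.646 and 0.778 CPM to 15.0, 12.9 and 13.9 CPM, a log2 fold change of 4.25 ± 0.12 (adjusted p = 1.08e-12). KLF13 went from 78.9, 79.0 and 80.8 CPM to 309, 322 and 326 CPM, or 1.97 ± 0.040. For KLF6 the untreated values were 18.5, 21.9 and 23.1 CPM and the treated ones 82.7, 84.1 and 84.0 CPM, or 1.95 ± 0.061. None of these 3 genes overlapped between the groups. KLF9 rose by 1.84 ± 0.080, KLF7 by 1.09 ± 0.052 and KLF10 by 0.33 ± 0.061. KLF16 fell by 0.40 ± 0.061 and KLF3 by 0.18 ± 0.060. The KLF3 libraries overlapped between the groups, and its call was lost when treated replicate 1 or 3 or untreated replicate 3 was left out (adjusted p between 0.0575 and 0.0672). The glucocorticoids differed in dose and in control group, so the values stand side by side without a test.

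**Figure D2:**
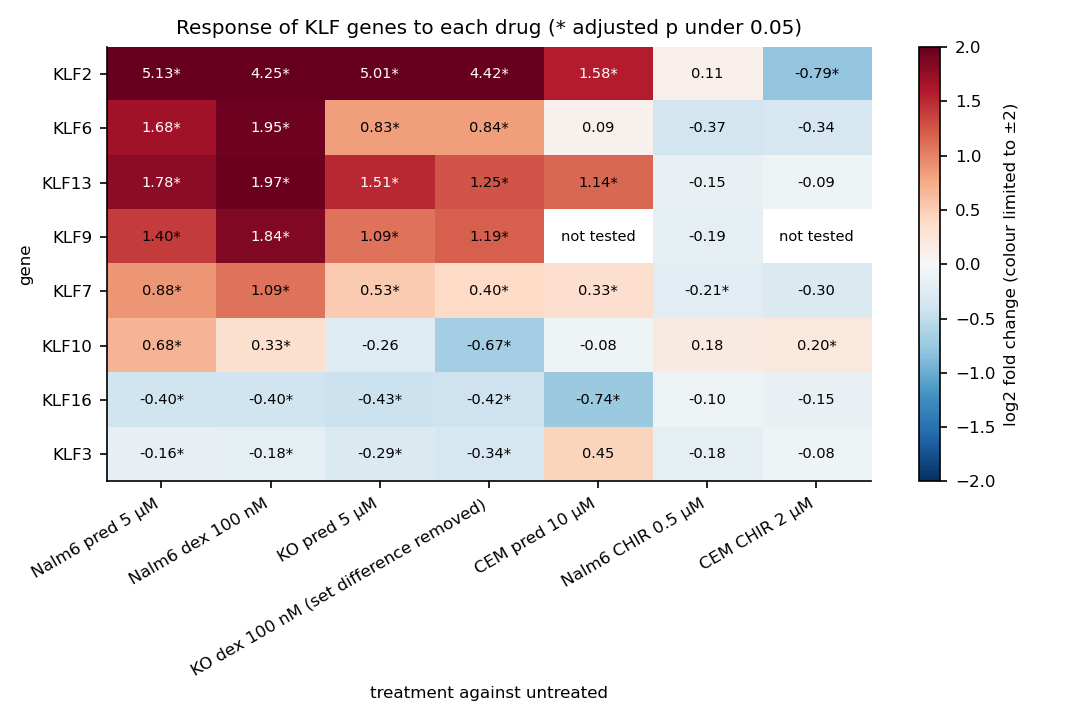
Log2 fold change of 8 KLF genes (rows) under each drug against untreated cells of the same line (columns), printed in each cell and coloured from blue (lower) to red (higher) with colour limited to ±2; asterisks mark an adjusted p under 0.05, and "set difference" is that between the 2 untreated parental groups. KLF2 and KLF13 are called higher in all 5 glucocorticoid columns, from 1.58 to 5.13 for KLF2, and KLF16 lower in all 5.

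Among related genes measured beside the members, KLF8 rose in the parental line by 1.16 ± 0.14 under prednisolone and 1.79 ± 0.18 under dexamethasone, and KLF12, a repressor, by 0.40 and 0.48. KLF15 fell by 0.62 and 0.69. Of the 8 other KLF genes, 4 were tested in each of these comparisons; 2 rose and 1 fell under prednisolone, 2 rose and 2 fell under dexamethasone. Such counts, here and in the lists that follow, stand beside the 54.8% and 60.5% of all genes called under these drugs. The 4 tested SP genes, which bind the same GC boxes, held 2 falls under prednisolone, SP1 (-0.27) and SP4 (-0.26). Among 9 co-regulators of KLF proteins, 4 rose and 4 fell under prednisolone, including the histone acetyltransferase gene KAT2B (0.62) and the co-repressor gene SIN3B (0.43), which were higher with CREBBP (0.40), and HDAC2 (-0.48), which was lower.

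Genes placed upstream of KLF2 moved in both directions, while no listed KLF2 target was called higher under either glucocorticoid in parental cells. Of 6 upstream regulators, 3 rose under prednisolone in parental cells, led by FOXO1 (0.64) and MEF2A (0.38), while MEF2C, which encodes a factor that activates the KLF2 promoter, fell by 0.72. Under dexamethasone 4 rose and MEF2C fell by 1.11. Of the 4 listed KLF2 target genes, 3 were tested under prednisolone; S1PR1 fell by 0.73 ± 0.19 and ITGB7 by 2.42 ± 0.47, from untreated means of 1.39 and 0.489 CPM. S1PR1 fell under dexamethasone as well, by 1.26 ± 0.14. In the list of KLF protein turnover, GSK3B rose by 0.76 under prednisolone and 1.28 under dexamethasone, with FBXW7 higher by 0.29 in each. SMAD7, the inhibitory SMAD of the TGF-beta pathway, rose by 1.13 and 0.83. The lists' medians were -0.73 for the KLF2 targets and 0.04 for the 7 TGF-beta genes under prednisolone, beside 0.03 over all genes.

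In the TLE1 knockout line prednisolone raised 5 and lowered 2 of the 8 tested members, where 41.7% of genes changed, 19.8% higher and 21.9% lower. KLF2 went from 0.382, 0.275 and 0.161 CPM, which rest on 11, 9 and 5 counts, to 6.58, 10.2 and 10.6 CPM, or 5.01 ± 0.28 on the log2 scale (adjusted p = 4.70e-07). KLF13 went from 81.1, 80.6 and 74.1 CPM to 222, 229.9 and 240.2 CPM, or 1.51 ± 0.062. KLF9 rose by 1.09 ± 0.14, from between 3.20 and 4.16 CPM to between 6.69 and 8.60 CPM. No treated library of these genes overlapped an untreated one. KLF6 went from 31.1, 29.9 and 23.2 CPM to 49.1, 51.6 and 53.7 CPM, or 0.83 ± 0.096 (adjusted p = 6.14e-05), and KLF7 rose by 0.53 ± 0.097. KLF16 fell by 0.43 ± 0.10, and KLF3 by 0.29 ± 0.077. The KLF3 call was lost without treated replicate 2 or 3 or untreated replicate 2 (adjusted p between 0.0546 and 0.0636). KLF10 stood at 16.5, 19.7 and 20.5 CPM untreated and 16.3, 17.0 and 15.4 CPM treated, a difference of -0.26 ± 0.10 that was not called (adjusted p = 0.0614). Without untreated replicate 1 it was called lower, at -0.36 (adjusted p = 0.00936).

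The test of the response difference, knockout minus parental under the same 5 µM dose, called 2 members, both lower, and 3.48% of 17952 genes, 1.1% higher and 2.38% lower. KLF6 rose less in the knockout, by -0.83 ± 0.11 on the log2 scale (adjusted p = 0.000197). KLF10, up in the parental line, differed by -0.91 ± 0.12 (adjusted p = 0.000408). The parental KLF10 libraries ran from 15.5 to 17.3 CPM untreated and from 23.8 to 27.9 CPM treated, and so moved apart where those of the knockout overlapped. For KLF2 the difference was -0.09 ± 0.50, with the 11, 9 and 5 counts given above in the untreated knockout. KLF7 (-0.33 ± 0.11), KLF9 (-0.30 ± 0.17), KLF13 (-0.25 ± 0.082), KLF3 (-0.10 ± 0.087) and KLF16 (-0.00056 ± 0.13) were not called. Without untreated knockout replicate 3, KLF7 (-0.42) and KLF13 (-0.29) were called as well, 4 members in all, and 9.96% of genes were. That replicate stood at 12.9 CPM for KLF7, 74.1 CPM for KLF13 and 23.2 CPM for KLF6, the lowest of its group for each. For KLF10 it was the highest, at 20.5 CPM.

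**Figure D3:**
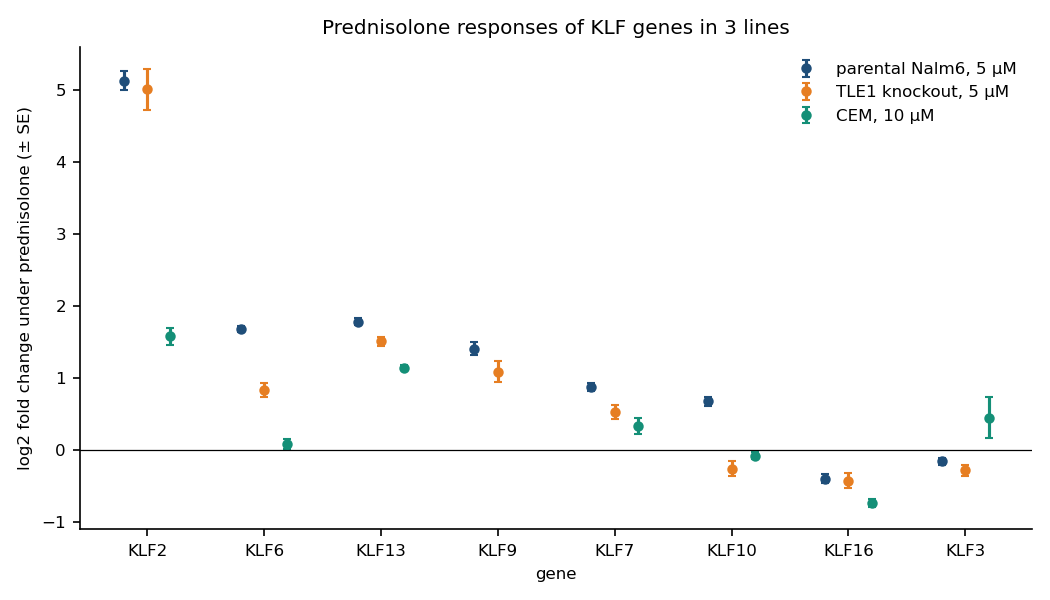
Log2 fold change under prednisolone (vertical axis) with SE bars for 8 KLF genes (horizontal axis) in parental Nalm6, the TLE1 knockout and CEM (coloured points); doses were 5, 5 and 10 µM. KLF6 is at 1.68, 0.83 and 0.09 and KLF10 at 0.68, -0.26 and -0.08, and KLF9 was not tested in CEM.

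Under dexamethasone 6 of 8 members were lower in the knockout than in parental cells and KLF16 was higher (0.29 ± 0.042), where 56.6% of genes differed, 28.5% higher and 28.1% lower. KLF6 stood at 35.9, 35.0 and 35.2 CPM in the knockout against 82.7, 84.1 and 84.0 CPM in the parental line, a log2 difference of -1.23 ± 0.036 (adjusted p = 4.66e-17). KLF7 differed by -0.81 ± 0.051, with 20.9, 20.2 and 18.0 CPM against 34.1, 35.3 and 35.2 CPM. KLF2 (-0.78 ± 0.086), KLF10 (-0.76 ± 0.057), KLF9 (-0.64 ± 0.072) and KLF13 (-0.37 ± 0.031) were lower too. None of the 6 overlapped between the lines, and the share of all genes without overlap was not counted. KLF3 differed by 0.05 ± 0.055 and was not called. These groups carry file names of different forms, so the line and that difference cannot be told apart here. The 2 untreated parental groups differ in file-name form too, though in another pair of forms, so they do not measure that difference. They differed in KLF6 (-0.50 ± 0.067) and KLF13 (0.40 ± 0.040); the other 6 members tested were not called, where 25.8% of genes were higher and 24.4% lower.

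The dexamethasone response of the knockout was set against untreated knockout libraries of another file-name form, with the difference between the untreated parental groups removed. That removal does not cover the form of the knockout dexamethasone libraries, so drug and form cannot be told apart. Of the 8 members, 5 were called higher and 3 lower; 40% of genes changed, 18.5% higher and 21.5% lower. The log2 differences were 4.42 ± 0.34 for KLF2, 1.25 ± 0.064 for KLF13, 1.19 ± 0.15 for KLF9, 0.84 ± 0.13 for KLF6 and 0.40 ± 0.11 for KLF7. For KLF10 the difference was -0.67 ± 0.12 (adjusted p = 0.000256). Its knockout libraries, without that removal, ran from 16.5 to 20.5 CPM untreated and stood at 12.1, 12.5 and 12.9 CPM under dexamethasone. KLF16 (-0.42 ± 0.12) and KLF3 (-0.34 ± 0.093) were called lower as well. Without that removal the KLF6 difference was 0.35, and all 8 members were still called.

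Untreated knockout and parental cells differed in 4 of 8 members, where 27.1% of genes were called, 15.3% with the knockout higher and 11.8% with it lower. KLF13 was higher in the knockout by 0.35 ± 0.053 (adjusted p = 0.00134), with every knockout library above every parental one. KLF16 (0.30 ± 0.090), KLF3 (0.21 ± 0.065) and KLF2 (-0.95 ± 0.31, adjusted p = 0.0491) were called as well. The KLF2 difference missed the threshold in 5 of the 6 refits without 1 library, with an adjusted p of up to 0.140, and under DESeq2. KLF16 and KLF3 lost their calls in 5 and 4 of 6 fits that left out a library. KLF3 lost its call with DESeq2, the replicate block and column 2 counts as well.

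In CEM under prednisolone at 10 µM, 3 members rose and 1 fell of 7 tested, where 45.1% of genes changed, 22.3% higher and 22.8% lower. KLF13 went from 185.9, 189.7 and 196.8 CPM to 436, 424 and 431 CPM, a log2 fold change of 1.14 ± 0.030 (adjusted p = 3.74e-15), and made up 72.1% of the members' length-scaled level. KLF2 went from 2.82, 2.96 and 1.95 CPM to 8.22, 7.54 and 8.26 CPM, or 1.58 ± 0.12 (adjusted p = 5.43e-09). KLF16 fell from 25.2, 26.3 and 24.3 CPM to 16.1, 15.4 and 14.8 CPM, or -0.74 ± 0.054 (adjusted p = 5.13e-09). None of these groups overlapped. KLF7 rose by 0.33 ± 0.11 (adjusted p = 0.0155), and lost that call without treated replicate 3 (0.21, adjusted p = 0.109), untreated replicate 1 or untreated replicate 3.

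KLF6 stood at 20.2, 24.4 and 19.3 CPM in untreated CEM and 22.9, 24.2 and 22.5 CPM under prednisolone, a difference of 0.09 ± 0.071 that was not called. Without untreated replicate 2 it was called higher, at 0.20 (adjusted p = 0.00386). KLF10 (-0.08 ± 0.053) and KLF3 (0.45 ± 0.28) were not called. KLF9 stayed at 0, 2 and 1 counts. TSC22D3 rose by 5.96 in the same libraries. Of the KLF2 target list, ITGB7 rose by 0.91 and CCR7 by 0.13 while S1PR1 fell by 0.26. Of the 7 TGF-beta genes 4 rose, TGFBR2 (0.98) and SMAD3 (0.67) among them, and 2 fell. Among all genes tested in CEM, 22.3% rose and 22.8% fell.

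The response difference, CEM minus Nalm6, was called for 6 of 8 tested members, all with negative values. Among all genes tested it was called for 26.9%, 14.7% higher and 12.2% lower. The doses differ, so line and dose cannot be told apart. KLF2 differed by -3.54 ± 0.22 (adjusted p = 5.11e-12) and KLF6 by -1.58 ± 0.085 (adjusted p = 4.53e-13). The others were KLF10 (-0.74 ± 0.089), KLF13 (-0.63 ± 0.061), KLF7 (-0.53 ± 0.11) and KLF16 (-0.33 ± 0.094). For KLF16, which fell in both lines, the negative value means a larger fall in CEM (-0.74 against -0.40). KLF3 (0.62) was not called. KLF9 is among the 8 tested only because its Nalm6 libraries passed the filter. It had 2 counts over the untreated CEM libraries and 3 over the treated ones. Its value (-0.83, not called) therefore measures no response in CEM. Untreated KLF2 was higher in CEM, while its treated level was lower there, at 8.01 ± 0.41 CPM against 19.0 ± 2.4 CPM in Nalm6. For KLF13 the level under prednisolone was higher in CEM, at 430.7 ± 6.0 CPM against 220.4 ± 11 CPM (SD, n = 3 each). These prednisolone groups carry file names of different forms, so line, dose and form cannot be told apart in their levels. Between the untreated parental groups of those forms KLF13 differed by 0.40 on the log2 scale, higher in the form that CEM has. The CEM minus Nalm6 test shares its untreated parental libraries with the parental prednisolone and CHIR-99021 tests and the knockout minus parental test. It also shares them with the knockout dexamethasone test, through the removal of the difference between the untreated parental groups. The test of untreated knockout against parental cells and the comparison of the untreated parental groups used them too. The parental dexamethasone response used the other untreated parental group. That group also entered the untreated CEM against Nalm6 test, the knockout dexamethasone test and the comparison of the untreated parental groups. The knockout prednisolone response used no parental library.

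**Figure D4:**
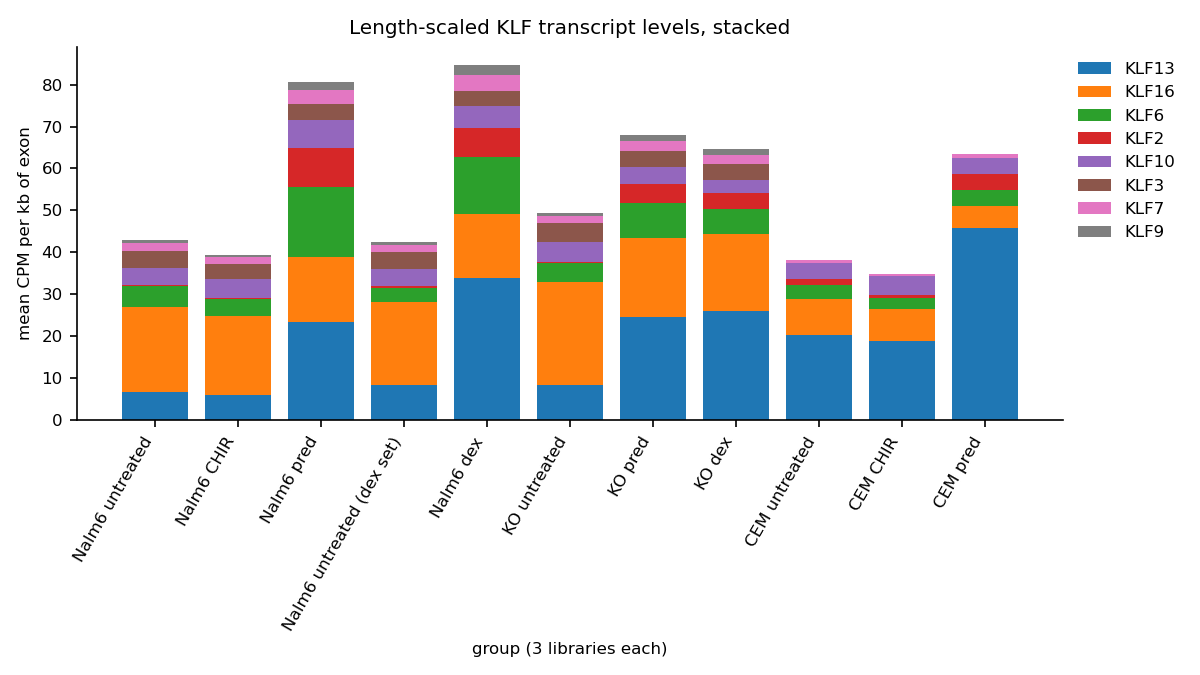
Mean length-scaled level of 8 KLF genes in CPM per kb of exon (vertical axis, linear, stacked, from 0) in the 11 groups of 3 libraries (horizontal axis). KLF16 is the largest segment in untreated Nalm6 (47.3%, and 46.3% in the dexamethasone control group) and KLF13 in CEM (53.0% untreated, 72.1% under prednisolone).

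CHIR-99021 was tested in parental Nalm6 and CEM. In parental Nalm6 at 0.5 µM, 1 of 8 tested members was called, where 7.88% of genes were, 3.16% higher and 4.72% lower: KLF7 fell by 0.21 ± 0.057 (adjusted p = 0.0494), from 16.1, 17.6 and 16.0 CPM to 14.8, 13.9 and 14.2 CPM. KLF7 kept that call when CHIR-99021 replicate 3 was left out and lost it without any other single library (adjusted p between 0.0784 and 0.230). KLF2 differed by 0.11 ± 0.26. KLF6 stood at 25.8, 29.4 and 16.8 CPM against 30.3, 31.9 and 31.1 CPM untreated, a difference of -0.37 ± 0.15 that was not called. It was -0.16 without CHIR-99021 replicate 3 and -0.56, then called (adjusted p = 0.0414), without CHIR-99021 replicate 2, and it was also called with no filter and with all libraries together.

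In CEM at 2 µM, KLF2 was lower at 1.43, 1.53 and 1.53 CPM against 2.82, 2.96 and 1.95 CPM untreated, a fall of 0.79 ± 0.16 on the log2 scale (adjusted p = 0.00830), and 10.8% of all genes changed, 5.41% higher and 5.43% lower. KLF10 was higher by 0.20 ± 0.053 (adjusted p = 0.0272), which no longer passed in 5 of the 6 refits without 1 library. KLF6 (-0.34 ± 0.10, adjusted p = 0.0520) and KLF7 (-0.30 ± 0.095) were lower in every treated library than in any untreated one without passing the threshold. KLF6 passed it in 7 of 14 alternatives, among them DESeq2 (adjusted p = 0.0116) and the refits without CHIR-99021 replicate 1 (-0.46) or untreated replicate 3 (-0.41). In the KLF2 target list S1PR1 rose by 0.33 and CCR7 fell by 0.25.

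Across the 11 group means of log2(CPM + 0.5), which share libraries and line differences, the member pair most alike was KLF7 and KLF9 (r = 0.97), followed by KLF3 and KLF16 (r = 0.94), and KLF2 ran closest to KLF13 (r = 0.88). Over 13150 genes with a symbol and at least 1 CPM, the 3 most like KLF2 were ELF1 (r = 0.98), ZNF831 and DDX17. For KLF13 they included WBP1L (r = 0.99) and DCAF5. They were, for KLF6, GOLGA6L5P (r = 0.99), CEP89 and HECTD4, for KLF7 PRAG1 (r = 0.99), SIN3B and CAST, and for KLF9 NPIPB15 (r = 1.00), IL6ST and AP1S3. These are descriptions over 11 points from 3 lines.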

How the data were processed

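RNA from 33 libraries of 3 leukaemia lines was counted per gene. The authors deposited raw read counts in the layout that STAR writes; the submitters' processing notes name Bowtie2, DESeq2 and hg19, without versions or roles. Reads in multiple genes or none stayed out of totals. Column 4 was used, since its gene total was 12.3 to 15.3 times that of column 3. Symbols matched 58652 and GENCODE v29 exon lengths 56643 of 62446 gene IDs. Levels are CPM, or CPM per kb of merged exons.

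For each comparison, its groups alone entered a fit with edgeR 4.0.16 in R 4.3.3 (filterByExpr, TMM, quasi-likelihood F test), adjusted by Benjamini-Hochberg over all genes tested and called at an adjusted p under 0.05. SE is the log2 fold change over the root of F. The steps were tested on simulated data. Depth was 25292579 to 61930057 counts, so 3 counts equal 0.0484 to 0.119 CPM; intervals cover counting error only. Multimapping reads, 4.83% to 7.55% per library, are not in the gene counts.

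The members, lists and rule for named genes (every member, label checks, up to 4 called genes of each list with the largest change, the 3 genes most like each member that changed by 1 or more on the log2 scale) were chosen with earlier results of these data known. Genes whose symbol is only an Ensembl ID were left out of the likeness after its values were seen. Groups follow titles, which differ from the protocol text on which line received which drug. Alternatives were RLE, DESeq2 1.42.0, other filters, robust moderation, a replicate block, column 2, all libraries together, another untreated group, no removal of the difference between the untreated parental groups, leaving out each library and longest-transcript length. Some genes that the rule names are not reported here.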

Additional observations from a re-analysis of the deposited data

Results flagged for a closer look

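The prednisolone response of 2 members differed between the TLE1 knockout and the parental line by the test of the difference itself: KLF6 (-0.83 on the log2 scale) and KLF10 (-0.91). Between CEM and Nalm6 it differed for KLF2 (-3.54), KLF6 (-1.58), KLF10 (-0.74), KLF13 (-0.63), KLF7 (-0.53) and KLF16 (-0.33), at 10 µM in CEM and 5 µM in Nalm6. All these comparisons share the untreated parental libraries. KLF6 and KLF10 are on both lists.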

How the results depend on the processing

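Of 65 called member values, 57 kept direction and call under every alternative run; none of those called changed sign. The number of members called for CHIR-99021 in Nalm6, 1 in the fit as designed, was 0 with RLE size factors, DESeq2, the replicate block or column 2, 2 with no filter or all libraries together, and 0 to 3 when a library was left out. For CHIR-99021 in CEM, 2 became 3 with RLE size factors, no filter or column 2, 1 with all libraries together and 1 to 2 without a library. For the knockout against parental cells untreated, 4 became 5 with no filter, 3 with at least 10 counts, 2 with DESeq2, the replicate block or column 2, and 1 to 4 without a library. For the knockout minus parental prednisolone response, 2 became 2 to 4. Whether the replicate numbers pair the samples is not known. In no comparison did all 3 same-number correlations exceed 0.1, a rule that cannot show the samples to be unpaired. The cause of these changes was not tested. Counts over all genes moved by over 1.5 times in 4 comparisons: 1425 for CHIR-99021 in Nalm6 (409 without untreated replicate 3, 2708 without treated replicate 3), 1865 for CHIR-99021 in CEM (1001 without treated replicate 2), 4655 for the knockout against parental cells untreated (2804 without parental replicate 1) and 624 for the knockout minus parental response (346 with the replicate block, 1852 without untreated knockout replicate 3).

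Some values that were not called changed sign. KLF3 for CHIR-99021 in CEM was 0.0415 with column 2. KLF9 in the knockout against parental cells was -1.1e-05 with at least 10 counts and -0.0178 with column 2. KLF10 in CEM against the other Nalm6 group was 0.0015. The KLF16 knockout minus parental response was 0.0034 with DESeq2, 0.0016 with no filter, 0.01002 with the replicate block and 0.0086 with all libraries. Between the untreated Nalm6 groups, KLF7 was -0.0107 and KLF16 -0.0084 with at least 10 counts, and KLF9 0.0014 with all libraries. Leaving out a library gave these ranges: KLF2 for CHIR-99021 in Nalm6 -0.13 to 0.31, KLF3 for CHIR-99021 in CEM -0.20 to 0.0748, KLF9 in the knockout against parental cells -0.12 to 0.0922, KLF6 in CEM against Nalm6 -0.13 to 0.0515, KLF2 in the knockout minus parental response -0.35 to 0.20, KLF16 in the knockout minus parental response -0.11 to 0.10, KLF9 in the CEM minus Nalm6 response -1.69 to 1.99 (-0.83 with all libraries of the comparison, 1.99 without untreated CEM replicate 2), KLF9 between the untreated groups -0.0581 to 0.0243, KLF7 between the untreated groups -0.0197 to 0.0529, KLF16 between the untreated groups -0.0576 to 0.0859. With longest-transcript length, 8 of 10 members kept their place in each untreated line. Low counts limit KLF2 in untreated cells, KLF4, KLF11 and, in CEM, KLF3 and KLF9.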
